A study of Mus musculus with 6 samples.

Results

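The genes of the machinery that bends an epithelial placode were followed on expression arrays of mouse lens ectoderm at embryonic day 9.5. The 10 genes were Shroom2, Shroom3, Rhoa, Rock1, Rock2, Myh9, Myh10, Pard3, Tjp1 and Ezr, and every probe that the platform's annotation assigns to 1 of these symbols was taken. Of the 10 genes, 8 had a probe, out of 17711 named genes on the array, with 17 of its 46632 probes in all, and 13 of the 17 passed the detection filter. Shroom2 and Rock2 had no probe under their symbols and were not analysed here. The filter asked for a detection p-value below 0.05, against the negative control beads of the same array, on at least 3 of the 6 arrays.

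The knockout samples (KO 1 to KO 3) had type I bone morphogenetic protein (BMP) receptors deleted in the lens placode and are labelled BMPR KO and ALK23. The genes Acvr1 and Bmpr1a encode the receptors ALK2 and ALK3. The wild-type samples (WT 1 to WT 3) are labelled BMPR WT, and all 6 samples share a mixed C57BL6 and FVB background. Lens ectoderm was cut by laser from frozen sections, although the tissue label of every sample also names retina. The Cre driver, the deleted exons and whether the wild-type embryos carried floxed alleles or Cre are not stated in the labels. The series text mentions pooling of RNA, and the spread between the 3 samples of a genotype, on which every p-value rests, may be partly technical.

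An epithelial sheet bends inward when its cells narrow at the apical end. Shroom proteins carry the kinase ROCK to the apical junctions, RhoA in its active form switches the kinase on, and the kinase activates non-muscle myosin II, which contracts the actin belt. The belt is tied to the junctions by scaffolds such as ZO-1, the polarity protein PAR3 marks the apical side, and ezrin links actin filaments to the apical membrane. In the mouse lens placode, Shroom3 and RhoA are both needed for the normal apical narrowing that forms the lens pit. The comparison asks whether the transcripts of this machinery depend on BMP receptor signalling in the placode.

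On each array between 39.6% and 45.7% of all probes were detected, and median deposited intensities lay between 74.5 and 90.7. For the deleted receptors, the best detected Acvr1 probe had a KO minus WT log2 difference of -0.74 (95% interval -2.12 to 0.64), and the Bmpr1a probes had 0.12 and -0.09. Since the deleted exons are not given here, these probes do not check the genotype labels. Of 9 markers fixed for lens ectoderm, 8 were tested and all 8 were detected on every array, with Foxe3, a lens regulator, below the filter. Their mean log2 level was 9.36 to 10.10 on the KO arrays and 9.43 to 10.14 on the WT arrays. Markers of neighbouring tissue were also present. Optic vesicle and pigment markers, 7 of 8 tested, averaged 6.48 to 7.75 on the KO arrays and 5.997 to 8.45 on the WT arrays. Periocular mesenchyme markers, 5 of 8 tested, averaged 7.26 to 8.40 and 7.17 to 8.68 on the KO and WT arrays, with Foxc1 and Col1a1 below the filter. Blood markers, 5 of 7 tested and Gata1 below the filter, averaged 8.55 to 9.58 on the KO arrays and 8.99 to 10.34 on the WT arrays. The blood mean includes Klf1, which passed the filter through its WT arrays alone (detected on 3 WT and 0 KO arrays). Endothelial markers, 3 of 6 tested and Cdh5, Tie1 and Tek below the filter, averaged 6.38 to 8.47 and 6.85 to 7.98 on the KO and WT arrays. The mean of the pigment genes Pmel and Dct was 9.36, 5.84 and 6.44 on KO 1 to KO 3, against 9.85, 5.75 and 9.55 on WT 1 to WT 3. The pieces thus differed in the signal of these pigment genes within each genotype. Beyond a fit that carries this pigment mean as a covariate, the part of these tissues in the results was not tested.

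None of the 13 tested member probes differed between KO and WT past a limma adjusted p of 0.05. The percentage called over all 20959 tested probes was likewise 0%, and the lowest adjusted p of a member was 0.989. The KO mean was higher for 8 and lower for 5 of the 13, where 50.9% of all tested probes had a higher KO mean. An unadjusted limma p below 0.05 was found for 4 member probes, against 4.49% of all tested probes, and the KO mean of 3 of them was higher. KO and WT arrays were fully apart for 5 of the 13 member probes, against 9.82% of all tested probes. Of these, 4 had the higher values in KO and 1 in WT, against 5.38% and 4.44% of all tested probes. The 5 probes belong to Rock1, Myh9 (opposite directions on separate probes), Pard3 and Ezr. The Myh9 probe with the higher KO values, ILMN_2604864, is among the 5 fully apart and the 4 with an unadjusted limma p below 0.05. It is also among the 8 with a higher KO mean. This probe passed the filter through its KO arrays alone, so none of these counts stands for the members as a whole. With 1 probe a gene, the one with the highest mean, 2 of 8 member genes had arrays that did not overlap, against 9.61% of 10099 named genes, and 1 had an unadjusted p below 0.05, against 4.29%. The fitted 95% interval left out a 2-fold change in both directions for 5 of the 13 member probes, against 40.7% of all tested probes, and for 5 of the 8 member genes at 1 probe a gene, against 45.7% of named genes. The KO mean was higher for 4 and lower for 4 of these 8 genes, where 49.2% of named genes had a higher KO mean. The median difference over the 8 genes was -0.01 on the log2 scale, and over the 10099 named genes it was also -0.01. In these dissected samples, fewer cells of a type and less RNA per cell cannot be told apart.

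**Figure D1:**
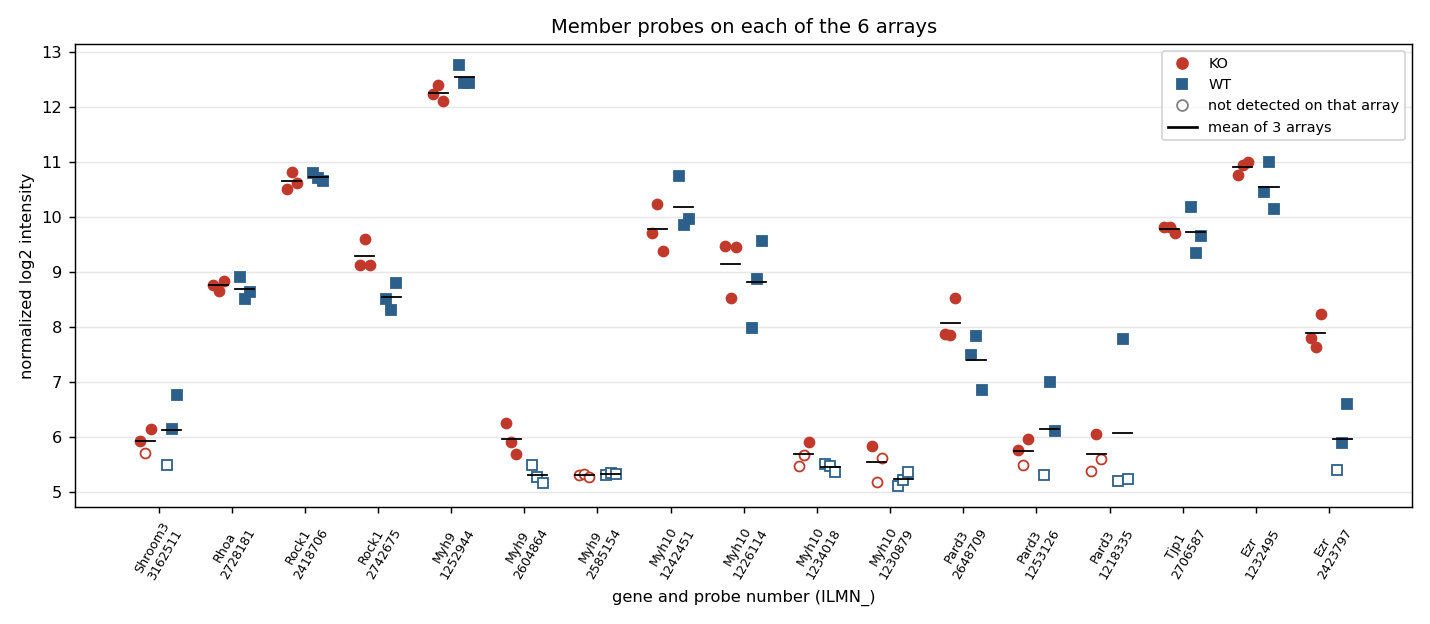
Normalized log2 intensity (vertical axis) of the 17 member probes (horizontal axis) on the 3 KO arrays (circles) and the 3 WT arrays (squares). Open symbols mark arrays on which the probe was not detected and black bars the mean of 3 arrays. The Ezr probe ILMN_2423797 lay at 7.64 to 8.24 on the KO arrays and 5.39 to 6.60 on the WT arrays.

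Shroom3, the scaffold that brings ROCK to apical junctions, gave a signal close to the detection floor. Its single probe ILMN_3162511 had log2 values of 5.92, 5.71 and 6.14 on KO 1 to KO 3, against 5.48, 6.13 and 6.76 on WT 1 to WT 3, and was detected on 2 arrays of each genotype. The genotypes overlapped, with the lowest and the highest value both on WT arrays. The KO minus WT difference was -0.20 (95% interval -1.02 to 0.62, limma adjusted p = 0.989). The interval leaves room for a loss of slightly more than 2-fold of the signal. Without WT 3 the difference was 0.12, and without WT 1 it was -0.52.

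Rhoa encodes the small GTPase that activates ROCK. Its probe ILMN_2728181 had 8.77, 8.66 and 8.84 on KO 1 to KO 3, against 8.91, 8.52 and 8.63 on WT 1 to WT 3. All 6 arrays detected it, and they lay within a narrow band. The difference was 0.07 (interval -0.49 to 0.64, limma adjusted p = 0.994), so a 2-fold change of the Rhoa signal in either direction lay outside the interval.

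Rock1, a kinase that phosphorylates the myosin light chain, was read by 2 probes that did not give the same picture. ILMN_2418706, the brighter, had 10.51, 10.83 and 10.63 on KO 1 to KO 3, against 10.80, 10.72 and 10.65 on WT 1 to WT 3. These overlapped, and the difference was -0.07 (interval -0.39 to 0.26, limma adjusted p = 0.992), the narrow interval of a bright and steady probe. ILMN_2742675 had 9.14, 9.60 and 9.13 on KO 1 to KO 3, against 8.51, 8.32 and 8.81 on WT 1 to WT 3. Every KO array lay above every WT array on this probe. Its difference was 0.74, a 1.67-fold higher mean in KO (interval 0.15 to 1.33, limma adjusted p = 0.989). Both Rock1 probes are annotated to the same RefSeq mRNA, and a gene-level statement on Rock1 therefore depends on which probe is read.

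Myh9, the heavy chain of non-muscle myosin IIA, had 3 probes. ILMN_1252944 had 12.24, 12.41 and 12.12 on KO 1 to KO 3, against 12.77, 12.45 and 12.44 on WT 1 to WT 3. The KO arrays were all lower, but KO 2 and WT 3 were nearly level. The difference was -0.30 (interval -0.59 to -0.01, limma adjusted p = 0.989), a KO mean 0.814 times that of WT. The interval excludes a 2-fold change of this bright signal, and the difference was -0.19 without WT 1.

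A second Myh9 probe, ILMN_2604864, went the other way near the floor. It had 6.26, 5.91 and 5.69 on KO 1 to KO 3 and was detected on all 3. It had 5.48, 5.27 and 5.16 on WT 1 to WT 3 and was detected on 0 of the 3, so it entered the test through the KO arrays alone. The KO mean was 1.14-fold the mean of the lowest detected signals of the 3 WT arrays. KO 3, at 5.69, lay below the lowest detected signal of WT 1 (5.78) and of WT 2 (5.855). The limma adjusted p of 0.989 belongs to the fit of the values themselves and not to this ratio. The third Myh9 probe, ILMN_2585154, was detected on no array and ranged from 5.27 to 5.35.

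Myh10 encodes the heavy chain of non-muscle myosin IIB, and 2 of its 4 probes were detected on every array. ILMN_1242451 had 9.72, 10.23 and 9.38 on KO 1 to KO 3, against 10.74, 9.86 and 9.97 on WT 1 to WT 3. The genotypes overlapped, and the difference was -0.41 with an interval from -1.09 to 0.26. ILMN_1226114 had 9.47, 8.52 and 9.46 on KO 1 to KO 3, against 7.99, 8.87 and 9.57 on WT 1 to WT 3. It also overlapped, at 0.34 with an interval from -0.65 to 1.33, and both had a limma adjusted p of 0.989. Without WT 1 the differences of these probes were -0.14 and -0.07, without KO 3 that of ILMN_1242451 was -0.21, and without WT 3 that of ILMN_1226114 was 0.72. The other two probes, ILMN_1234018 and ILMN_1230879, were each detected on 1 KO array and 0 WT arrays. Neither was tested, with values from 5.18 to 5.91 on the KO arrays and from 5.11 to 5.499 on the WT arrays.

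Pard3 encodes PAR3, the scaffold of the apical polarity complex, and its probes disagreed in direction. ILMN_2648709, detected on all arrays, had 7.86, 7.86 and 8.52 on KO 1 to KO 3, against 7.48, 7.83 and 6.86 on WT 1 to WT 3. The KO arrays were all higher, with a gap of only a few hundredths between KO 2 and WT 2. The difference was 0.69 (interval -0.27 to 1.65, limma adjusted p = 0.989), and 0.43 without WT 3. ILMN_1253126, detected on 2 arrays of each genotype, had 5.77, 5.495 and 5.95 on KO 1 to KO 3, against 5.30, 7.01 and 6.11 on WT 1 to WT 3. Its highest value was on WT 2, and its difference of -0.40 (interval -1.35 to 0.55, limma adjusted p = 0.989) was 0.04 without that array. The third probe, ILMN_1218335, was detected on KO 2 and WT 2 only and was not tested. It stood at 7.77 on WT 2, against at most 6.05 on the other arrays, so WT 2 gave the highest value on both of the dimmer Pard3 probes. Each of the 3 Pard3 probes is annotated to a transcript record of its own.

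Tjp1, which encodes the junction scaffold ZO-1, had 9.83, 9.82 and 9.70 on KO 1 to KO 3, against 10.19, 9.35 and 9.66 on WT 1 to WT 3, from its probe ILMN_2706587. The KO arrays lay between the extremes of the WT arrays. The difference was 0.05 (interval -0.48 to 0.59, limma adjusted p = 0.995), which leaves a 2-fold change outside. The KO values had an SD of 0.07 and the WT values an SD of 0.42 (n = 3 each).

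Ezr encodes ezrin, the linker between actin and the apical membrane, and held the member probe with the lowest p. ILMN_2423797 had 7.80, 7.64 and 8.24 on KO 1 to KO 3, against 5.39, 5.89 and 6.60 on WT 1 to WT 3. In the deposited intensity this was 287, 252 and 410 on the KO arrays, against 82.1, 95.7 and 149 on the WT arrays, and 2 of the 3 WT arrays detected it, WT 1 not. All KO arrays lay above all WT arrays by at least 1 log2 unit. The log2 difference was 1.93 (interval 0.85 to 3.01, limma adjusted p = 0.989), or 3.81-fold on this scale, with WT values close to the floor that do not fix the fold closely. A difference of at least that size in either direction was found for 0.0859% of all tested probes.

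The second Ezr probe did not show a difference of that size. ILMN_1232495, the brighter probe, had 10.76, 10.95 and 10.998 on KO 1 to KO 3, against 10.47, 11.01 and 10.15 on WT 1 to WT 3. The genotypes overlapped, with WT 2 the highest of the 6 arrays. The difference was 0.36 (interval -0.13 to 0.86, limma adjusted p = 0.989), and the value was 0.21 with the pigment covariate and 0.54 with array weights. It was 0.16 without WT 3 and 0.60 without WT 2. The larger difference on ILMN_2423797 was 1.93 with the pigment covariate too, and with single arrays left out it ranged from 1.63 without WT 1 to 2.25 without WT 3. It did not pass over all tested probes in any of these fits. Both Ezr probes are annotated to the same RefSeq mRNA.

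**Figure D2:**
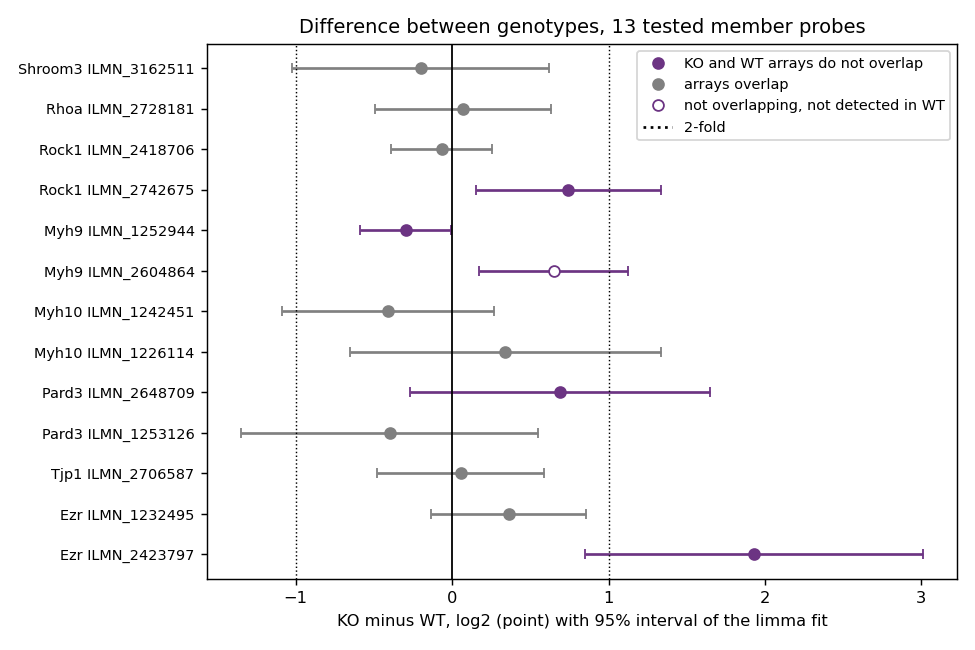
KO minus WT difference on the log2 scale (horizontal axis) for the 13 tested member probes, with the 95% interval of the limma fit. Purple points are the 5 probes whose KO and WT arrays do not overlap and dotted lines mark 2-fold. For 4 probes the interval excludes 0, but the adjusted p is 0.989 for each. The open point is ILMN_2604864, which no WT array detected.

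For the genes with more than 1 tested probe, the difference between 2 probes was also formed on each array. Pairs of opposite direction were taken, and the Ezr pair was added after its values were seen. Since the pairs were chosen on the differences they restate, their values are a description with no test. The Myh9 pair is left out because no WT array detected ILMN_2604864. For Rock1, ILMN_2418706 exceeded ILMN_2742675 by 1.38, 1.23 and 1.497 on KO 1 to KO 3, against 2.28, 2.40 and 1.84 on WT 1 to WT 3. For Ezr, ILMN_1232495 exceeded ILMN_2423797 by 2.97, 3.32 and 2.76 on KO 1 to KO 3, against 5.07, 5.12 and 3.55 on WT 1 to WT 3. In both genes the 2 probes lay closer together on each KO array than on any WT array. Without background correction the Ezr pair overlapped between genotypes.

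For Pard3, ILMN_2648709 exceeded ILMN_1253126 by 2.10, 2.37 and 2.56 on KO 1 to KO 3, against 2.19, 0.83 and 0.75 on WT 1 to WT 3, with overlap at WT 1. The Myh10 pair overlapped widely, with 0.24, 1.72 and -0.08 on KO 1 to KO 3, against 2.75, 0.99 and 0.40 on WT 1 to WT 3. Where on the transcript each probe lies was not analysed here.

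**Figure D3:**
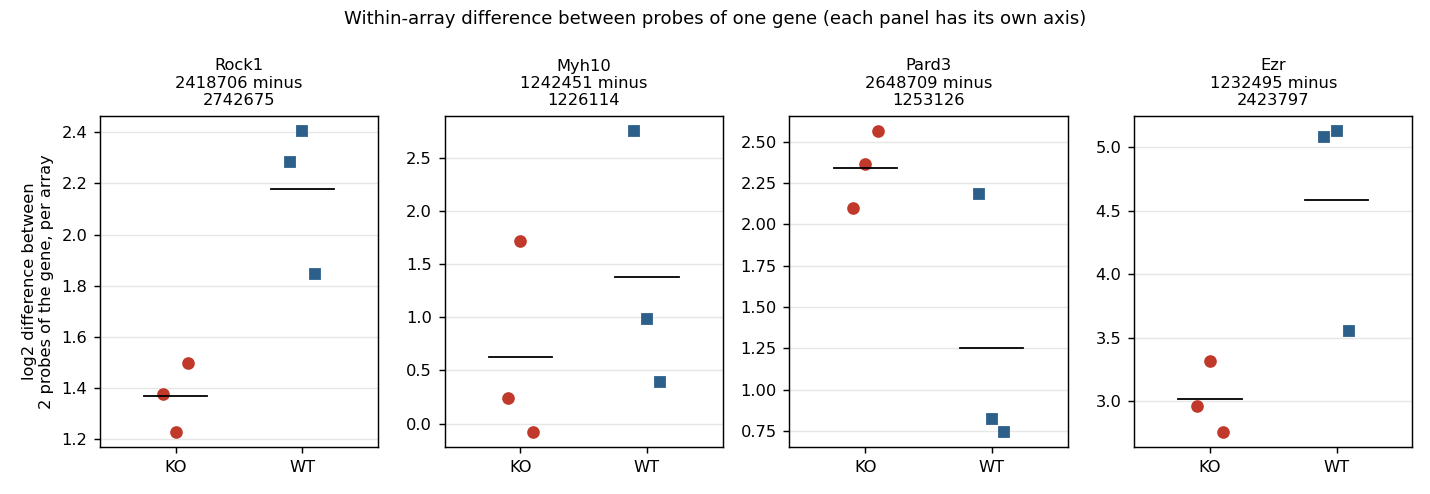
Within-array log2 difference between 2 probes of the same gene (vertical axis, own scale per panel) on the 3 KO arrays (circles, left) and 3 WT arrays (squares, right), with bars at the mean of 3 arrays. The genotypes separate for Rock1 and Ezr, pairs chosen for their unequal differences, and overlap for Myh10 and Pard3.

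Bead error covers the reading of 1 array and leaves out the difference between dissected samples. An array reads each probe on many beads, and the tested member probes had between 22 and 66 beads per array. The standard error over beads corresponded to a median of 0.05 log2 units of the deposited intensity. The SD between arrays of a genotype had a median of 0.31, from log2 intensities that were quantile normalized without background correction. The ratio of the spread to the bead error had a median of 5.596 over the 13 member probes and 5.83 over all tested probes. It was above 1 for each of the 13 and for 20811 of all 20959 tested probes, so it describes the platform and these samples and not the members. Among the members it ran from 2.39 for Rhoa to 12.2 for the Myh10 probe ILMN_1226114. The series text says that the submitters' own statistics used the 25 to 50 beads of each array, whereas in the comparisons here the arrays were the replicates.

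**Figure D4:**
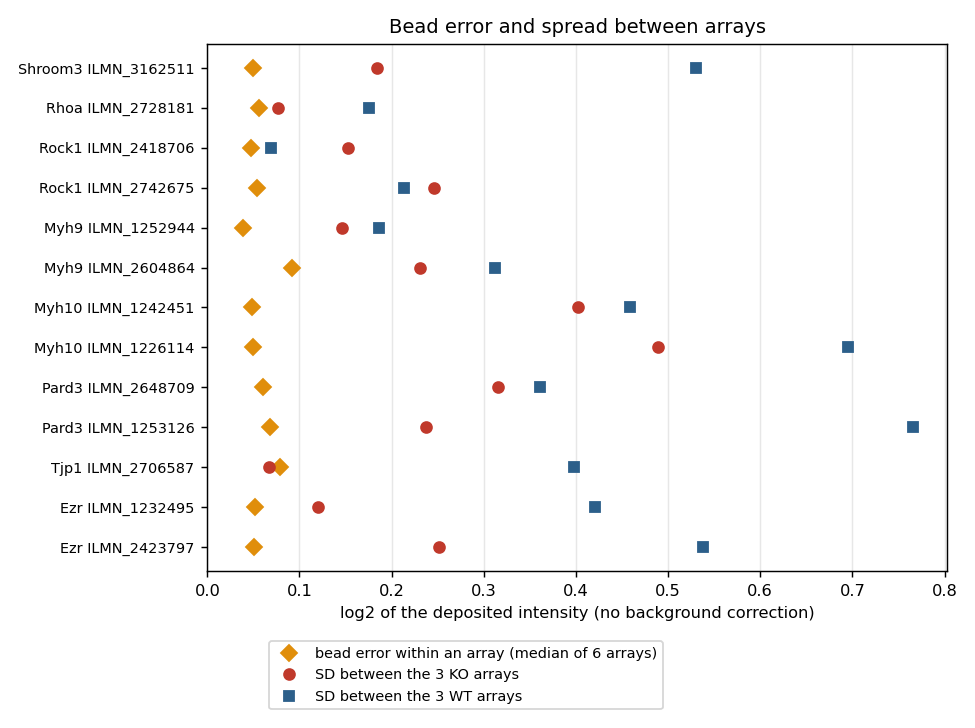
Bead error within an array (diamonds, median of 6 arrays) and SD between the 3 KO arrays (circles) and the 3 WT arrays (squares) for the 13 tested member probes, on a log2 scale. The SDs are from deposited intensities after quantile normalization, without background correction. The bead errors stay below 0.1, while most SDs between arrays lie between 0.1 and 0.8.

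Other genes of the same machinery gave no call either. Of 77 genes in 7 lists, 68 had a probe and 62 were tested with 1 probe a gene. None passed and 1, Myl6, had an unadjusted limma p below 0.05, against 4.29% of all named genes. The KO mean was higher for 43 and lower for 19 of the 62, where 49.2% of all named genes had a higher KO mean. The median difference was 0.10, against -0.01 over all named genes. The genotypes were fully apart for 6 of the 62, near the 9.61% of all named genes. The lists and their median differences are descriptions of these arrays without a test.

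Among the other Shroom family genes, Shroom1 had 6.93, 6.09 and 8.07 on KO 1 to KO 3, against 5.30, 5.90 and 6.98 on WT 1 to WT 3, with a difference of 0.97 (interval -0.45 to 2.40). These values overlapped. Shroom4, at 0.04 (interval -0.48 to 0.56), was detected on 2 KO arrays and 1 WT array. Of 10 tested small GTPases and regulators, 6 had a higher and 4 a lower KO mean. The largest differences were those of Arhgef11, a guanine nucleotide exchange factor for RhoA (0.60, interval -0.16 to 1.36), and Rhob, a close relative of Rhoa (-0.39, -0.89 to 0.11). The Arhgef11 arrays did not overlap, but only 2 of the 3 WT arrays detected the probe. The second Arhgef11 probe gave 0.23. The second Rhob probe gave -0.34.

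Of 9 tested genes of myosin chains, kinases and phosphatase, 5 had a higher and 4 a lower KO mean. Myl6, the essential light chain of non-muscle myosin, had 9.88, 9.56 and 10.14 on KO 1 to KO 3, against 9.03, 9.42 and 9.46 on WT 1 to WT 3. Its arrays did not overlap, and the difference was 0.56 (interval 0.04 to 1.07, limma adjusted p = 0.989). Myl12a, a regulatory light chain, had -0.44 (interval -1.62 to 0.73). Of 17 tested actin genes and regulators, 13 had a higher and 4 a lower KO mean. Cfl1, the actin-severing protein cofilin, had 1.09 (interval -0.62 to 2.80), and Limk1, the kinase that inactivates cofilin, had 0.50 (-0.13 to 1.12). Both overlapped between genotypes, and Cfl1 was not detected on WT 3.

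Polarity complexes had 8 genes with a higher and 2 with a lower KO mean among 10 tested. Scrib, a basolateral polarity scaffold, had -0.87 (interval -1.99 to 0.26), while its second probe gave 0.07. Pard6a, a PAR3 partner, had 0.81 (interval -0.35 to 1.96). Of 8 tested junction genes, 6 had a higher and 2 a lower KO mean. Cdh2, N-cadherin, had 0.45 (interval -0.67 to 1.56) (its 4 other probes gave -0.56 to 0.16), and Tjp3, a relative of Tjp1, had -0.36 (-2.15 to 1.43). The ERM relatives and partners of ezrin split 3 to 3. Nf2, which encodes merlin, had 0.41 (interval -0.98 to 1.80) on 1 probe and 0.00 on its second, and Slc9a3r1, an ezrin-binding scaffold, had 0.36 (-0.14 to 0.86). Each gene named from these lists had a limma adjusted p between 0.989 and 0.995.

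**Figure D5:**
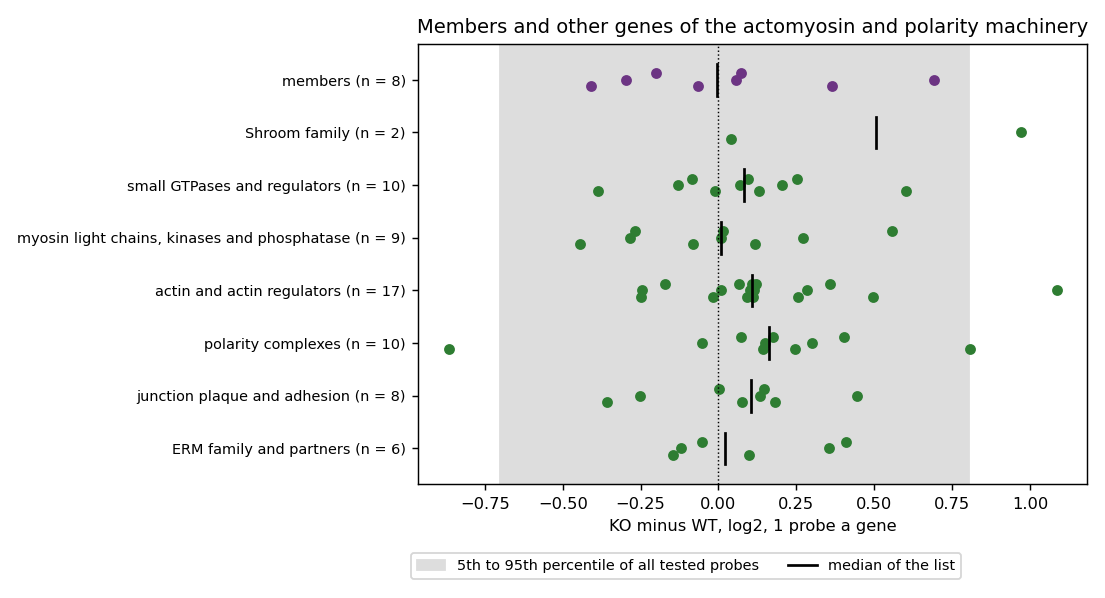
KO minus WT difference on the log2 scale (horizontal axis) for the 8 member genes and 7 lists of related genes, 1 probe a gene, with black bars at the list medians. The grey band runs from the 5th to the 95th percentile of all tested probes (-0.70 to 0.80), and the 8 member points lie inside it. Ezr is plotted by ILMN_1232495, the probe with the higher mean.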

How the data were processed

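Per the file headers, the deposited non-normalized table holds, per probe and array, the mean bead intensity, a count of beads, their standard error and a detection p-value. The submitters' processing notes name GenomeStudio. A second deposited table holds processed intensity values, linear and partly below 0, whose background subtraction and scaling are not given in the sources used here; its ranks equal those of the intensity (Spearman correlation 1 on each array). Intensities were corrected with neqc (limma 3.58.1, R 4.3.3; with the negative controls read off the detection p-values, offset 16, quantile normalization, log2). Tested were 20959 probes, each fitted as KO minus WT with lmFit and eBayes (variance trend), with Benjamini-Hochberg adjustment over all of them; the code was tested on simulated data. Tests were two-sided and intervals are 95%. On an array that did not detect a tested probe, the value near the floor was used as it was. Gene symbols came from the platform's annotation (29976 probes with 1 symbol, 10 with several, 16646 unnamed).

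The members and lists were chosen with earlier results of these data known. Named were all member probes and, per list, the 2 tested genes with the largest absolute difference; the targeted receptors Acvr1 and Bmpr1a were added to this rule. All 6 arrays sat on 1 slide, per the labels. Alternatives were the authors' values (floor 0, pseudocount 16), no background correction, no detection filter, no variance trend, array weights, a replicate block, a pigment covariate and leaving out each array. An exact permutation test planned for probes of opposite sign was run but is left out, since the pairs were chosen on the values it would test.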

Additional observations from a re-analysis of the deposited data

How the results depend on the processing

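No tested probe passed under any of the 13 alternatives. Of the 20959 tested probes, 576 (without KO 3) to 1492 (with the pigment covariate) had an unadjusted limma p below 0.05, against 941. Without a detection filter it was 1961 of 46632 probes. Member probes at such a p numbered 3 to 6 of 13, against 4. These counts can include ILMN_2604864 (Myh9), which passed the filter through its KO arrays alone. The 6 were found with array weights, where 1225 of all 20959 tested probes had such a p. Without the filter, without the variance trend and with the replicate block the differences equal those given above, so no sign could change there. How many of all tested probes kept their sign was not determined. Of the 13 member probes, 7 kept their sign under all 13 alternatives. That count includes ILMN_2604864 (Myh9), which passed the filter through its KO arrays alone, so its sign supports no difference. The 7 were ILMN_2742675 (Rock1), both Myh9 probes, ILMN_1242451 (Myh10), ILMN_2648709 (Pard3) and both Ezr probes. The others changed sign when 1 array was left out: Shroom3 ranged from -0.52 to 0.12, Rhoa from -0.0125 to 0.18, ILMN_2418706 (Rock1) from -0.15 to 0.0053, ILMN_1226114 (Myh10) from -0.0719 to 0.72, ILMN_1253126 (Pard3) from -0.82 to 0.0359 and Tjp1 from -0.14 to 0.28. The cause was not tested. The probe differences of Rock1, Myh10, Pard3 and Ezr kept their sign with other values and without 1 array, and the filter does not enter them. The Ezr probe difference overlapped between genotypes without background correction (-1.12, against -1.57). There the KO minus WT difference of ILMN_2423797 by itself was 1.47. The Myh9 probe difference, which rests on a probe undetected in WT, was -1.92 in the authors' values, against -0.95. Same-numbered KO and WT arrays had correlations of deviations of 0.11, 0.14 and -0.01. With 3 arrays per genotype these values cannot decide whether the numbers pair the samples, and the labels state no pairing. With the replicate block the count of calls was 0, with 986 probes at an unadjusted p below 0.05, and KO 1 and KO 3 did not correlate best with their own number. Dim probes are limited by signal over background: values near the floor are compressed by the offset.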
